A study of Rattus norvegicus with 4 samples.

Results

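Cadherins and protocadherins were read from the count files as the rows whose gene name is Cdh followed by a number or begins with Pcdh. The files hold 64 such genes among 25810, and 48 of them had at least 20 reads over the 4 libraries and are described here. The cells are 2 clones of PC12, a line from a rat pheochromocytoma (a tumour of the chromaffin cells of the adrenal medulla): wtPC12, labelled wild type with low REST levels, and hrPC12, labelled high REST, which was formerly called PC12-27. REST is a transcription factor that represses many neural genes in non-neural cells. RNA of each clone was sequenced in 2 libraries. No treatment separates the groups, and the labels do not say whether the 2 libraries of a clone come from separate cultures, so p values measure only the spread between libraries, which may be technical. Because 1 clone stands for each REST level, REST and other traits of a clone cannot be told apart.

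Cadherins are membrane proteins whose extracellular repeats bind calcium and hold neighbouring cells together. The classical cadherins (type I, such as E-, N-, P- and M-cadherin, and type II) bind like cadherins on the facing cell and are tied to actin through catenins. Protocadherins have the same kind of repeats and another cytoplasmic tail. Most of them lie in the Pcdha, Pcdhb and Pcdhg clusters, 3 neighbouring gene arrays on 1 chromosome, in which neurons choose promoters to express different sets and so recognize their own branches. In the alpha and gamma arrays each variable first exon is joined to constant exons shared by the array, whereas each beta gene stands alone. Most promoters of the clusters carry a conserved sequence element with the core CGCT, near which CTCF and cohesin bind, and a distant enhancer of the alpha array also has a site for REST.

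These promoter elements are printed because the clearest pattern in the counts followed the order of the beta genes along the chromosome. In the RefSeq promoters of the rat assembly GRCr8 (300 bases around each start), the letters GGTGGCGCT or their reverse complement occurred in 153 of 33469 promoters (0.457%), and in 15 of the 17 Pcdhb promoters of that table. The windows below lie before the annotated start on the plus strand, in the order of the genes, with the searched letters in capitals. Windows that do not lie wholly before the start are not shown.
Pcdhb2, chr18:29279917-29279957: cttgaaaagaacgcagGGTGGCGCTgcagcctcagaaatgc
Pcdhb3, chr18:29285598-29285638: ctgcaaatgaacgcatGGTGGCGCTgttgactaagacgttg
Pcdhb4, chr18:29292205-29292245: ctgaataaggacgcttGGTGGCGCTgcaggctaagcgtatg
Pcdhb5, chr18:29302398-29302438: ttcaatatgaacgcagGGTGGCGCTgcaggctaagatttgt
Pcdhb7, chr18:29328992-29329032: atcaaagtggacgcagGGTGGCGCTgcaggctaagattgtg
Pcdhb8, chr18:29339252-29339292: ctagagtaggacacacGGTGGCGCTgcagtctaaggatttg
Pcdhb9, chr18:29379242-29379282: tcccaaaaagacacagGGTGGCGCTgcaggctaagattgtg
Pcdhb12, chr18:29413642-29413682: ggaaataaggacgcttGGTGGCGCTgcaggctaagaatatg
Pcdhb14, chr18:29431803-29431843: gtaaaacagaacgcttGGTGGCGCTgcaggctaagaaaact
Pcdhb19, chr18:29478758-29478798: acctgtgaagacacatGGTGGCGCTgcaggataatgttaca
Pcdhb20, chr18:29485804-29485844: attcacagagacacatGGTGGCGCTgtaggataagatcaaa
Pcdhb21, chr18:29492143-29492183: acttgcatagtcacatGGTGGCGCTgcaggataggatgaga

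The letters CGCTGTT, which share the CGCT core, occurred in 662 of the 33469 promoters (1.98%) and in 11 of the 15 Pcdhg promoters, of which none held GGTGGCGCT. Among the Pcdhb promoters CGCTGTT occurred in 1, that of Pcdhb3, where it overlaps GGTGGCGCT. The windows of the 2 gamma genes that were higher in hrPC12 and of Pcdhga7, which was not, are shown in the same way.
Pcdhga2, chr18:29745082-29745120: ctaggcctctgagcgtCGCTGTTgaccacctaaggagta
Pcdhga7, chr18:29794204-29794242: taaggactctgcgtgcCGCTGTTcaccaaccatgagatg
Pcdhga10, chr18:29825813-29825851: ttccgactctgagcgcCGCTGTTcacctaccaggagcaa
Both sets of letters were chosen after the promoters had been read. A match describes the sequence and is not a measured binding site.

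Each library held 20975027 to 27246502 reads on genes. Members held between 0.0467% and 0.0850% of them. Rest itself had a log2 FC of 3.42 of hrPC12 over wtPC12 (standard error 0.57). Its adj. p value was 0.0115 by the quasi-likelihood test of edgeR, the test used throughout. Of the 9 chromaffin markers tested, 6 were lower in hrPC12 (Th, Dbh, Chgb, Slc18a1, Phox2a and Slc6a2). Ddc, Hand2 and Gata3 did not pass, with log2 FC of 0.27, −0.85 and −0.03. The summed level of the chromaffin markers was 817637 to 956095 normalized counts in wtPC12 and 47393 to 51443 in hrPC12. Chgb alone gave 687936 and 626776 of the sums in wtPC12. Such levels come from whole cultures, so fewer cells of a type and less RNA per cell cannot be told apart.

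Of the 48 described members 47 could be tested, and in hrPC12 8 were lower and 3 were higher past both thresholds of the study (adj. p value under 0.01 and a log2 FC beyond 2 in either direction). Over all 13726 tested genes 5.46% were lower and 4.84% higher by the same thresholds. Protocadherins were 38 of the 47 tested members and accounted for 7 of the 8 that were lower and 2 of the 3 that were higher. Classical cadherins were 6 of the 47, with 1 of the 3 higher and none of the 8 lower. With so few calls, no difference between the classes can be read from these counts. Both hrPC12 libraries lay under both wtPC12 libraries in 24 members and over them in 20, against 35.6% and 37.9% of all tested genes. The median log2 FC was −0.28 over the 47 members and 0.06 over all tested genes. Among the members, 24 had an adj. p value under 0.05, as did 32.4% of all tested genes. The count of lower members was 9 to 11 and that of higher members 4 to 7 with other scalings, filters or tools. Calls over all genes rose there as well, from 749 to between 781 and 977 lower and from 665 to between 720 and 1127 higher. In each of these settings the 11 members were among those called. A fit that leaves out 1 library has a single library in that clone, which is assumed to vary like the pair of the other clone. Without wtPC12 replicate 2 no member passed, nor did any of the 13590 genes that could then be tested, so none of the calls below is kept in that fit.

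**Figure D1:**
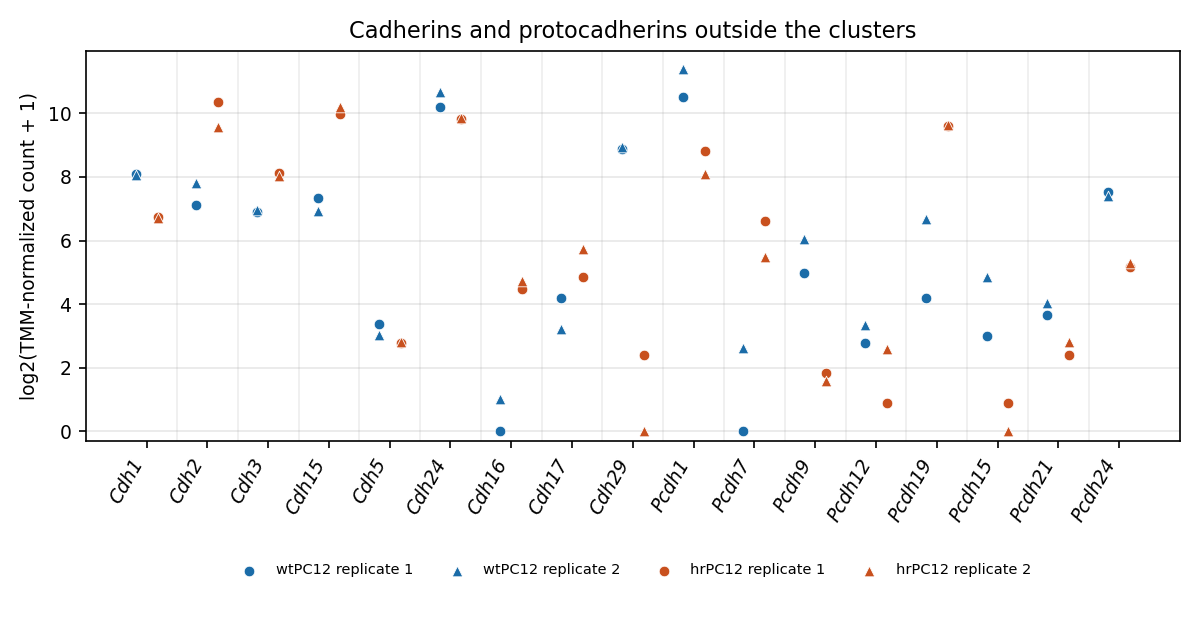
TMM-normalized counts, as log2(count + 1), of the 17 described cadherins and protocadherins outside the clusters in the 2 wtPC12 libraries (blue) and the 2 hrPC12 libraries (orange), with replicate 1 as circles and replicate 2 as triangles. Cdh2, Cdh15, Pcdh7 and Pcdh19 had both hrPC12 points above both wtPC12 points, whereas Cdh1, Cdh29, Pcdh1 and Pcdh24 had them below.

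The 4 type I classical cadherins described had unlike levels in the clones. Cdh15, or M-cadherin, the cadherin of myoblasts and muscle satellite cells, had 159 and 122 normalized counts in the wtPC12 libraries and 999.8 and 1181 in the hrPC12 libraries. The fitted log2 FC was 2.96 (standard error 0.27, adj. p value 0.00203 by edgeR), or 7.76-fold, and it was the only classical cadherin past both thresholds. Of the 5 skeletal muscle markers tested, Myod1, Myog and Acta1 were also higher in hrPC12, whereas Ckm and Des did not pass, with log2 FC of 1.18 and −1.99. Their summed level was 107 to 156 normalized counts in wtPC12 and 3987 to 4389 in hrPC12, mostly Myod1 in the latter, and Myf5 had no read in any library. Their part in the level of Cdh15 was not tested.

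Cdh2, or N-cadherin, which neural and mesenchymal cells use, had 137 and 223 normalized counts in wtPC12 and 1295 and 760 in hrPC12. The clones did not overlap, with a log2 FC of 2.51 (standard error 0.41), but the adj. p value of 0.0111 by edgeR missed the threshold. With 1 library left out the log2 FC ranged from 2.07 to 2.90. With no library left out, Cdh2 passed both thresholds under some of the other scalings, filters and tools and missed them under the rest. Of the 8 mesenchymal markers tested 5 were higher in hrPC12 (Vim, Col1a1, Col1a2, Col3a1 and Pdgfrb), while Pdgfra, Twist1 and Dcn did not pass, with log2 FC of 0.57, 0.58 and −3.10. Their summed levels were 473 to 528 normalized counts in wtPC12 and 87233 to 91875 in hrPC12, of which Col3a1 alone gave 83801 and 88143, and none was at 0 in all libraries.

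Cdh1, or E-cadherin, which joins epithelial cells, had 271 and 269 normalized counts in wtPC12 and 105 and 104 in hrPC12. Its libraries within a clone were nearly equal, and its log2 FC was −1.37 (standard error 0.27, adj. p value 0.0198 by edgeR), short of both thresholds. Cdh3, or P-cadherin, had 119 and 124 against 275 and 261, a log2 FC of 1.15 (standard error 0.27, adj. p value 0.0314 by edgeR). Of the 5 epithelial markers tested, Epcam, Krt8 and Cldn4 were lower in hrPC12, whereas Ocln and Krt19 did not pass, with log2 FC of −1.41 and 3.05. Their summed levels, most of which was Krt8, were 37306 to 48219 normalized counts in wtPC12 and 8633 to 8652 in hrPC12. The part of these markers in the levels of Cdh1, Cdh2 and Cdh3 was not tested.

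Of the 10 type II classical cadherins in the files only Cdh24 and Cdh5 reached 20 reads. Cdh24 had 1178 and 1644 normalized counts in wtPC12 and 911 and 931 in hrPC12, which gave a log2 FC of −0.62 (standard error 0.24, adj. p value 0.105 by edgeR). Cdh5, or VE-cadherin of endothelial cells, was near the limit of detection, with 6 to 8 reads in each library. Endothelial markers summed to 86.1 to 108 normalized counts in wtPC12 and 615 to 628 in hrPC12 (1 of 2 tested higher), leukocyte markers to 16.5 to 34.9 and 357 to 423 (1 of 2 higher) and glial markers to 162 to 166 and 237 to 257 (1 tested, not called, and Sox10 at 0), and their part in the levels of the members was not tested. Cdh7, Cdh8, Cdh9, Cdh10, Cdh19 and Cdh20 had no read, which allows up to 3 reads or 2.54 to 3.49 normalized counts per library. Cdh11 and Cdh12 had 2 and 3 reads in all. The median log2 FC of the 6 classical cadherins was 0.35. Both hrPC12 libraries lay under wtPC12 in 3 of them and over it in the other 3, against 35.6% and 37.9% of all tested genes.

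The 3 other described genes with a Cdh number differed in direction. Cdh29 had 470 and 494 normalized counts in wtPC12 and 4.23 and 0 in hrPC12, or 404 and 480 reads against 5 and none. This was the lowest log2 FC of all members, −7.66 (standard error 0.80, adj. p value 0.00293 by edgeR). Without hrPC12 replicate 1 the gene had no read left in hrPC12 and was not tested. Cdh16, a kidney cadherin with a short cytoplasmic tail, had 0 and 1 read in wtPC12 and 25 reads in each hrPC12 library, a ratio of 42.2 in normalized counts with a 95% exact counting interval of 7.23 to 1699. Its adj. p value of 0.0120 by edgeR missed the threshold. With no library left out, Cdh16 passed under every other scaling, filter or tool tried except DESeq2. In fits with a single hrPC12 library the spread comes from wtPC12 libraries of 0 and 1 read. Cdh17, the liver and intestine cadherin, had 8 to 15 reads in wtPC12 and 33 to 52 in hrPC12 (adj. p value 0.0913 by edgeR). Cdh13, which is anchored by lipid and has no cytoplasmic tail, had 7 reads in all.

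Among the 5 described non-clustered protocadherins none passed both thresholds. In the same edgeR test 4 had an unadjusted p under 0.05, as did 46.3% of all tested genes. With no library left out, Pcdh1, Pcdh7, Pcdh9 and Pcdh19 passed under some or all of the other scalings, filters and tools. Pcdh19, which associates with N-cadherin and whose human gene is mutated in an epilepsy of girls, had 17.4 and 102 normalized counts in wtPC12 and 775 and 791 in hrPC12. The hrPC12 libraries were close to each other and the wtPC12 libraries differed 5.84-fold. The log2 FC was 3.70 (standard error 0.80, adj. p value 0.0242 by edgeR), and it was 2.91 without wtPC12 replicate 1, where the gene passed, and 5.48 without wtPC12 replicate 2, where it did not. It also passed in the fits with a single hrPC12 library. Pcdh7 had 0 and 5.15 normalized counts in wtPC12 and 97.4 and 43.5 in hrPC12, which gave a log2 FC of 4.65 (standard error 1.02, adj. p value 0.0257 by edgeR), and it too passed in the fits with a single hrPC12 library, with 3.95 without replicate 1 and 5.06 without replicate 2.

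For Pcdh1 the wtPC12 libraries were the higher ones, with 1447 and 2695 normalized counts in wtPC12 and 452 and 271 in hrPC12. The fitted log2 FC was −2.52 (standard error 0.43), and its adj. p value of 0.0124 by edgeR missed the threshold. With 1 library left out the log2 FC ranged from −2.93 to −1.999, and the gene passed except without wtPC12 replicate 2. Pcdh9 had 26 and 63 reads in wtPC12 and 3 and 2 in hrPC12. The ratio in normalized counts was 21.1, with a counting interval of 8.71 to 66.6, and the adj. p value of 0.010006 by edgeR lay just outside the threshold. Pcdh12, an endothelial protocadherin, had 5 and 9 reads against 1 and 5. Pcdh11x and Pcdh20 had no read, and Pcdh18 had 13 in all, every one of them in hrPC12.

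The 3 other genes named Pcdh are now named as cadherin-related genes or serve in sensory cells. In all 3 both hrPC12 libraries lay under both wtPC12 libraries, as they did in 35.6% of all tested genes. Pcdh24, listed in RefSeq as Cdhr2, which links the microvilli of intestinal cells, had 185 and 167 normalized counts in wtPC12 and 34.7 and 38.4 in hrPC12. It was lower past both thresholds, with a log2 FC of −2.26 (standard error 0.32, adj. p value 0.00748 by edgeR), a call that was lost without wtPC12 replicate 1 and without hrPC12 replicate 2. Pcdh15, part of the tip links of hair cells, had 6 and 27 reads in wtPC12 and 1 and 0 in hrPC12, a ratio of 39.1 with a counting interval of 6.55 to 1591. Pcdh21, listed in RefSeq as Cdhr1, of photoreceptors, had 10 and 15 reads against 5 and 6.

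In the alpha array the files name Pcdha6 alone. It had 5659 and 6651 normalized counts in wtPC12 and 674 and 664 in hrPC12. The clones were far apart and the libraries of each close together, with a log2 FC of −3.20 (standard error 0.19), or 9.20-fold, and the lowest adj. p value of the members, 0.000649 by edgeR. RefSeq lists Pcdha6 as a synonym of 1 alpha gene, Pcdha4. Because the files name no other alpha gene, the count may sum several first exons and the shared constant exons. Which of them were read cannot be told from these files.

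**Figure D2:**
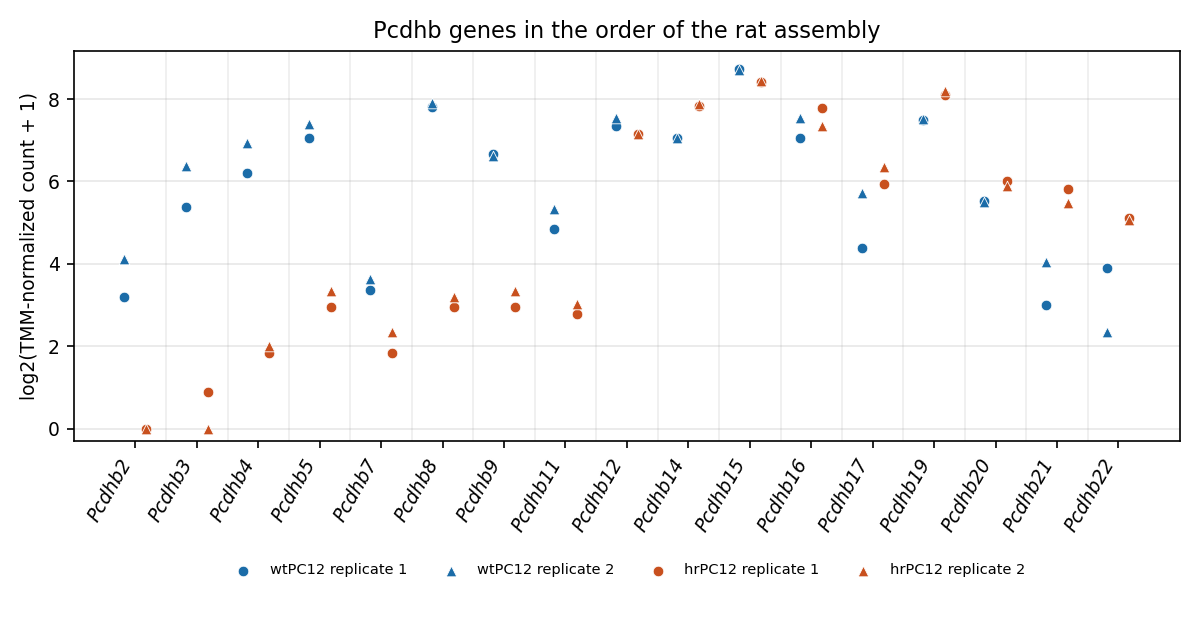
TMM-normalized counts, as log2(count + 1), of the 17 described Pcdhb genes that could be placed, in their order in GRCr8, with wtPC12 in blue, hrPC12 in orange, replicate 1 as circles and replicate 2 as triangles. From Pcdhb2 to Pcdhb11 the hrPC12 points lie under the wtPC12 points in each gene, and from Pcdhb12 on they lie near or above them.

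The beta array held 19 described genes, of which 5 were lower in hrPC12 past both thresholds, none was higher and 1 could not be tested. Of all tested genes 5.46% were lower and 4.84% higher by these thresholds. The beta genes that passed were all in the first stretch of the array. Pcdhb8 had 223 and 240 normalized counts in wtPC12 and 6.77 and 8.10 in hrPC12, which gave a log2 FC of −4.94 (standard error 0.37, adj. p value 0.00117 by edgeR). Pcdhb5 had 131 and 168 against 6.77 and 9.11, with a log2 FC of −4.23 (standard error 0.42, adj. p value 0.00253 by edgeR). Pcdhb9 had 86 and 95 reads against 8 and 9, with a log2 FC of −3.63 (standard error 0.42, adj. p value 0.00381 by edgeR), and its call was also lost without wtPC12 replicate 1. These 3 genes kept 8 or 9 reads in each hrPC12 library, so they were detected there.

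In Pcdhb2, Pcdhb3 and Pcdhb4 hrPC12 was at the limit of detection. Pcdhb3 had 35 and 79 reads in wtPC12 and 1 and 0 in hrPC12, a ratio of 135 with a counting interval of 23.8 to 5383 (adj. p value 0.00647 by edgeR), and was not tested without hrPC12 replicate 1. Pcdhb4 had 63 and 117 reads against 3 and 3, a ratio of 35.6 with an interval of 16.02 to 98.2 (adj. p value 0.00327 by edgeR). Pcdhb2 had 7 and 16 reads in wtPC12 and none in hrPC12, which makes it at least 4.42-fold lower there, counting 3 reads per library for hrPC12. Pcdhb7 and Pcdhb11 had log2 FC of −1.63 and −2.35 (adj. p values 0.0944 and 0.0216 by edgeR). Pcdhb6, which fell just short of the minimum with 19 reads, had 8 and 10 reads against 0 and 1.

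The 8 genes from Pcdhb2 to Pcdhb11 summed to 614 and 775 normalized counts in wtPC12 and 32.2 and 40.5 in hrPC12. They made up 33.6% and 37.2% of the counts of the described beta genes in the wtPC12 libraries and 2.04% and 2.60% in the hrPC12 libraries. The 11 genes from Pcdhb12 to Pcdhb22 summed to 1214 and 1309 against 1543 and 1519. Pcdhb13 and Pcdhb18 were put in the second stretch by their number alone. The boundary between the stretches was set after the values had been seen, and the sums carry no test.

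None of the 11 genes of the second stretch passed both thresholds, and their log2 FC ran from −1.03 to 2.11 with a median of 0.64. Both hrPC12 libraries lay over both wtPC12 libraries in 7 of them (Pcdhb14, Pcdhb17, Pcdhb18, Pcdhb19, Pcdhb20, Pcdhb21 and Pcdhb22) and under them in 3 (Pcdhb12, Pcdhb13 and Pcdhb15), while those of Pcdhb16 overlapped. Over all tested genes these shares were 37.9% over and 35.6% under. Pcdhb15, the member of the stretch with the most reads, had 426 and 414 normalized counts against 341 and 349 (log2 FC −0.28, adj. p value 0.387 by edgeR). Pcdhb19 had 180 and 181 against 275 and 290 (log2 FC 0.64, adj. p value 0.116 by edgeR). Pcdhb12 had 162 and 185 against 142 and 142 (log2 FC −0.29, adj. p value 0.457 by edgeR), Pcdhb14 had 131 and 133 against 226 and 236 (log2 FC 0.80, adj. p value 0.0773 by edgeR), and Pcdhb16 had 133 and 186 against 221 and 161 (log2 FC 0.26, adj. p value 0.580 by edgeR). At the end of the array, Pcdhb21 and Pcdhb22 had 4 to 15 reads in the wtPC12 libraries and 32 to 65 in the hrPC12 libraries.

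**Figure D3:**
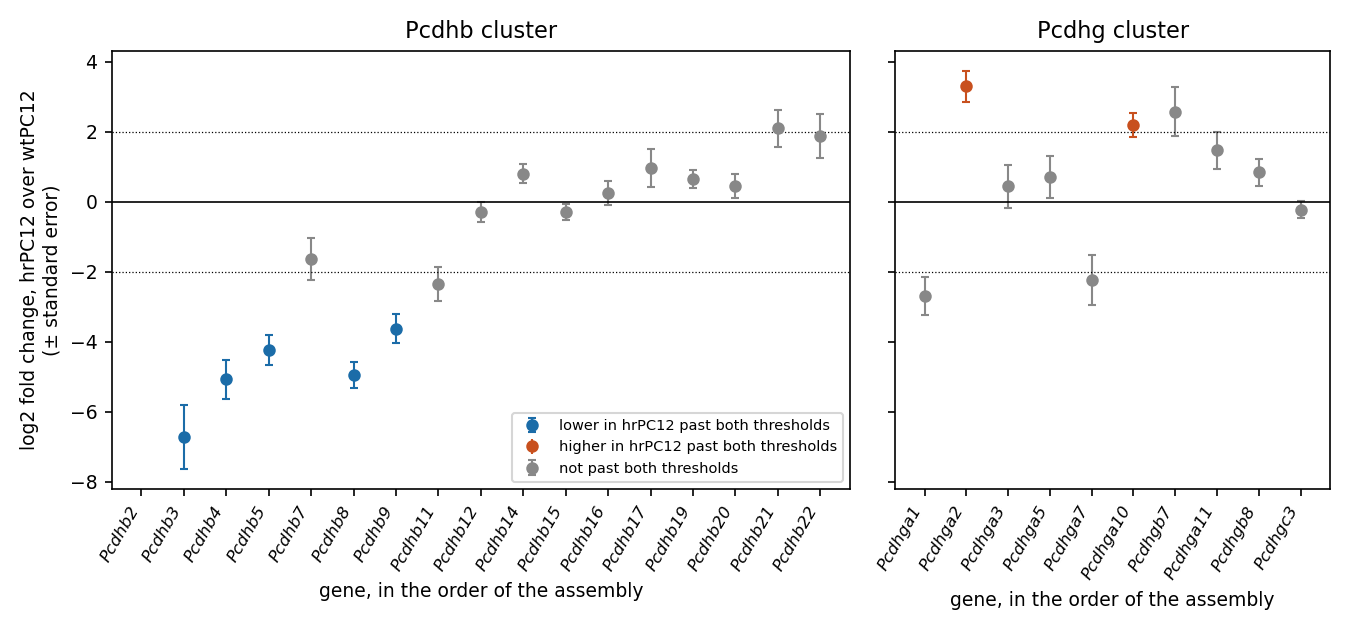
Fitted log2 fold change of hrPC12 over wtPC12 (points) with its standard error (bars) for the tested Pcdhb genes (left) and Pcdhg genes (right), in their order in GRCr8. Dotted lines mark a log2 FC of 2 in either direction, blue and orange points passed both thresholds, and Pcdhb2 has no point because hrPC12 held no read. The beta genes run from −6.72 at Pcdhb3 to 2.11 at Pcdhb21, and the gamma genes show no such order.

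Over the 16 tested beta genes that could be placed, Spearman's rho between the place in the array and the log2 FC was 0.93. Over the 10 gamma genes it was 0.14. These coefficients describe neighbouring genes measured in the same 4 libraries, which are not independent, and carry no test. Pcdhb13, Pcdhb18 and Pcdhgb2 could not be placed by symbol, and the build of the counts is older than GRCr8, so the order is that of the current symbols. RefSeq also lists Pcdhb2, Pcdhb14, Pcdhb16 and Pcdhgb7 as synonyms of other genes of the arrays (Pcdhb12, Pcdhb20, Pcdhb16l and Pcdhga10), so their places, their windows above and, for the beta genes, their stretch are uncertain. The promoter letters did not part the stretches, since GGTGGCGCT was present in 7 of 7 promoters of the first that RefSeq holds and in 6 of 7 of the second, the exception being Pcdhb15.

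The gamma array held 11 described genes, of which 2 were higher in hrPC12 past both thresholds and none was lower, against 4.84% and 5.46% of all tested genes. Pcdhga2 had 14.0 and 8.24 normalized counts in wtPC12 and 103 and 117 in hrPC12, which gave a log2 FC of 3.31 (standard error 0.44, adj. p value 0.00614 by edgeR), or 9.90-fold. Pcdhga10 had 39.6 and 54.6 against 217 and 218, a log2 FC of 2.20 (standard error 0.33, adj. p value 0.00907 by edgeR), or 4.60-fold. Without wtPC12 replicate 1 neither passed, and Pcdhga10 did not pass without hrPC12 replicate 2 either.

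Pcdhgc3, a C-type gene, which cells tend to express constantly rather than by choice, had 2803 and 4270 normalized counts in wtPC12 and 3008 and 3050 in hrPC12. The clones overlapped, with a log2 FC of −0.22 (standard error 0.24, adj. p value 0.504 by edgeR), which turned to 0.11 without wtPC12 replicate 2. Pcdhgb7, Pcdhga11, Pcdhgb8 and Pcdhga5 had both hrPC12 libraries over wtPC12, with log2 FC of 0.70 to 2.58, and Pcdhga1, Pcdhgb2 and Pcdhga7 had them under it, with fitted log2 FC of −2.69 to −2.23. Pcdhga7 had 7 and 18 reads against 3 and 3, a ratio of 4.94 with a counting interval of 1.98 to 14.7. Pcdhgb2 had 13 reads in hrPC12 replicate 1 and 1 in replicate 2, and its adj. p value was 0.0959 by edgeR. Without replicate 1, which leaves 1 read in hrPC12 and a spread from wtPC12 alone, its log2 FC was −4.81 and it passed. The libraries of Pcdhga3 overlapped. In GRCr8, 12 of 16 gamma genes end at 1 shared position, where a read of a constant exon does not belong to any of them alone, so the split of gamma counts among genes is uncertain.

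Reads without a unique position were not counted, so beta and gamma genes that resemble each other may be counted too low. Reads that could not be given to 1 gene (ambiguous reads) were left out too. They numbered 236166 in hrPC12 replicate 1 and 55908 to 78907 in the other libraries, and their part in the levels of the members was not tested. For the elements of REST's own recognition motif, CAGCACC was found in 2 of 30 described members' promoters (Pcdh1 and Pcdh12) and in 6.78% of all promoters. GGACAG was found in 5 of the 30 and in 21.7% of all. The search covered only 300 bases around each start, so it cannot show whether a member has a REST site. No promoter was held for Pcdha6, Cdh29, Pcdh24, Cdh1, Cdh2, Cdh3 and Pcdh19, among others.

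Among catenins and other cytoplasmic partners of cadherins none of the 11 tested passed both thresholds, with 4 at an unadjusted p under 0.05 in the edgeR test, against the 46.3% of all tested genes. The log2 FC of Ctnna1 (alpha-catenin, which binds actin) was 0.23, that of Ctnnb1 (beta-catenin, which binds the cadherin tail) 0.39, and that of Vcl (vinculin) 1.63 with an adj. p value of 0.00847 by edgeR. Ctnna2, the neural alpha-catenin, named after its values were seen, had 71.0 and 82.4 normalized counts in wtPC12 and no read in hrPC12, at least 27.5-fold lower.

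Of the 7 other genes of the cadherin superfamily that were tested, 2 were lower and 1 higher, against 5.46% and 4.84% of all tested genes. Celsr3, a seven-pass cadherin of axon guidance, had 5407 and 12872 normalized counts in wtPC12 and 101 and 110 in hrPC12 (log2 FC −6.44, adj. p value 0.00146 by edgeR). Clstn3, a synaptic calsyntenin, had a log2 FC of −2.60 (adj. p value 0.00130 by edgeR). Fat1, a giant cadherin, had 2.33 and 5.15 normalized counts in wtPC12 and 853 and 404 in hrPC12 (log2 FC 7.32, adj. p value 0.00187 by edgeR). Genes with no read in wtPC12 were not tested, and 3 of them, named after their values were seen, were at least 16.9-fold (Dsg3), 10.7-fold (Dsc3) and 7.78-fold (Fat3) higher in hrPC12. Clstn1, Dchs1 and Celsr2 had log2 FC of 0.17, −1.16 and −2.58 and did not pass.

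Of the desmosome plaque genes, which anchor desmosomal cadherins to keratin, Pkp3 was lower, at 1309 and 1158 against 8.47 and 18.2 normalized counts (log2 FC −6.54, adj. p value 0.000892 by edgeR), and Pkp2 was higher, with a log2 FC of 2.32 (adj. p value 0.00984 by edgeR). Jup, Dsp and Ppl, the other 3 tested, had log2 FC of −0.52, 1.0 and 1.52. None of the 10 tested genes for proteases that cut cadherins, or for subunits of such proteases, passed. In the edgeR test 3 had an unadjusted p under 0.05, against 46.3% of all tested genes. The protease gene Furin and the subunit genes Aph1a and Ncstn had log2 FC of −1.25, −0.05 and 0.05. Among 12 factors bound at clustered protocadherin promoters 2 were lower, against 5.46% of all tested genes. They were the cohesin subunit Stag2 with a log2 FC of −2.31 (adj. p value 0.00153 by edgeR) and the DNA methyltransferase Dnmt3b with −2.52 (adj. p value 0.00938 by edgeR). Their relatives Stag1 and Dnmt3a, named after their values were seen, did not pass. Stag1 had 1758 and 2140 normalized counts in wtPC12 and 3516 and 3457 in hrPC12, a log2 FC of 0.84. Stag2 had 2193 and 2457 against 472 and 463. The libraries of Dnmt3a overlapped, with a log2 FC of −0.42. The cohesin genes Rad21, Smc3 and Pds5b had log2 FC of 0.35, 0.21 and 1.05, and Ctcf, named after its values were seen, had −0.21.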

How the data were processed

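Total RNA of wtPC12 and hrPC12 was sequenced by the authors from TruSeq libraries as paired-end reads, aligned to the rat build rn4 with TopHat2 2.0.4 and, per the labels' processing notes, counted with HTSeq 0.5.3. The authors deposited raw counts per gene for each of the 4 libraries. A deposited table of the authors' DESeq 1.9.12 comparison, with their fold changes and p values, was not used.

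Here, in R 4.3.3, counts were scaled with edgeR 4.0.16 TMM factors (0.942, 1.01, 0.997 and 1.05). A gene was tested when its mean over the libraries reached 5 normalized counts and each clone had a read. The 13726 genes left were tested with edgeR's quasi-likelihood test (legacy option on), and p values were adjusted over all of them (Benjamini-Hochberg). A 2-sided exact permutation test with 2 libraries per clone cannot go under p = 0.333. Where a clone had at most 3 reads in each library, the ratio of summed reads, scaled, is given with an exact (Clopper-Pearson) 95% interval, or, at 0 reads, a bound with 3 reads per library. Both cover counting error only, since reads carry no molecular identifiers. Replicates of a clone differed beyond sampling noise.

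The members, gene lists and marker lists were chosen with earlier results of these data known. All described members are named, with the value in every library for those past both thresholds, with at least 500 reads, or at the limit of detection. From each list without members, the genes past both thresholds are named and at most 3 with the most reads among the rest. Alternatives tried were RLE factors, library totals, every gene with at least 1 read, filterByExpr, DESeq2 1.42.0, the legacy option off, other thresholds, other read minimums and each library left out in turn. Gene order and promoters are from RefSeq (GRCr8), matched by symbol, and 30 of the 48 described members had a promoter there.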

Additional observations from a re-analysis of the deposited data

How the results depend on the processing

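Of 456 fold changes of single members under the alternatives, 391 kept their direction and side of the thresholds, 45 (8 genes) passed only under the alternative, 17 (11 genes) no longer passed and 3 changed sign. Those 3 passed no threshold. With a library left out, Pcdhb16 ranged from −0.000224 to 0.53 and Pcdhga3 from −0.10 to 1.32, both lowest without wtPC12 replicate 1, and Pcdhgc3 from −0.53 to 0.11, highest without wtPC12 replicate 2. The 8 lower members numbered 9 to 11 under every other tool, filter or scaling tried, and 13 with an adjusted p under 0.05. The 3 higher members numbered 7 with RLE factors, with library totals or with every gene of at least 1 read, 6 with DESeq2 and 9 with an adjusted p under 0.05. Over all genes the higher calls rose too, from 665 to 870 with RLE factors, 902 with library totals and 877 with DESeq2. With every gene of at least 1 read they were 1127. The lower calls over all genes, 749 in the report's test, were 901, 835, 911 and 977 in these settings. The genes that passed under some alternative and not in the report's test were Cdh16, Cdh2, Pcdh1, Pcdh19, Pcdh7, Pcdh9, Pcdhga1 and Pcdhgb2. With each library left out in turn, 0 to 9 members were lower and 0 to 7 higher. Both counts of 0 came without wtPC12 replicate 2, where edgeR called no gene at all, and the cause was not tested. The median log2 FC of the classical cadherins, 0.35, was 0.31 with RLE factors, 0.41 with library totals, 1.15 over members with at least 50 reads and 0.31 to 0.41 with a library left out. That of the non-clustered protocadherins, −1.39, turned to 1.16 over members with at least 1 read in the fit of every gene and to 0.59 with at least 50 reads, since few genes of both directions make it up. That of the beta array, −0.29, was −0.22 with library totals, −0.66 over members with at least 1 read and −0.35 to −0.25 with a library left out. Over all genes the median log2 FC was 0.02 with RLE factors and 0.13 with library totals. No paired analysis was possible because the labels share no replicate numbers between the clones, and the numbers used here only name the libraries. Genes with few reads, such as those at the start of the beta array in hrPC12, are limited by depth, and a count of 0 allows 2.54 to 3.49 normalized counts.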
